A study of Oryza sativa with 12 samples.

Results

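On a rice array, 94 of 57194 probe sets met the same heat limits in panicles of both cultivars studied. Each of the 94 had a group mean at least 2 higher on the log2 scale (4-fold) under heat than in control in IR64, and again in Nagina 22 (N22), with both heat means at 6 or more. The members were thus chosen by the measured heat and control means, so their heat rises are given as a description and carry no test. The limits were met by 297 probe sets in IR64 (0.519% of all) and by 870 in N22 (1.52%), and the 94 shared ones are 31.6% of the IR64 list and 10.8% of the N22 list. Of the 94, 69 paired with 1 gene each and stood for 67 genes, all listed as protein-coding, while 25 had no gene paired with them. Only 9 of the 67 genes carried an informative name in the gene table, so many members appear here by gene number (LOC) or probe set name, with no role given.

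Panicles of Oryza sativa were taken from main tillers of IR64, called heat-susceptible in the labels, and of N22, called heat-tolerant. Heat plants had spent 8 days, nights included, at 5 °C above ambient inside a phenotyping facility, from booting onward. Control plants of the same cultivars grew in the open beside it and were collected on the same day, so heat and growing site changed together and cannot be told apart. There were 4 groups (IR64 control, IR64 heat, N22 control, N22 heat) of 3 arrays each, and arrays of a group correlated across all tested probe sets at 0.994 to 0.997. No transgene or mutation is named for any group, and the labels do not say whether replicates came from separate plants or pools, so p-values measure only the spread between these samples.

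When plant cells warm, heat stress transcription factors switch on genes for heat shock proteins, chaperones that keep other proteins folded. Lasting heat at flowering also reaches hormone signalling, redox control, nitrogen metabolism, cell walls and defence compounds. In rice, booting and flowering panicles hold florets and anthers, and young grains form only after fertilisation. Failure of pollen and fertilisation in the panicle is the best known injury from heat.

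In both cultivars, values were higher under heat on all arrays for all 94 members, with no overlap between heat and control. The same held for 11.1% of the 29801 probe sets tested, and since the limits used these arrays nothing is read from the difference. The rise was 2.02 to 7.22 in IR64, with a median of 2.75, and 2.01 to 8.81 in N22, with a median of 3.21. The smaller of each member's rises had a median of 2.46 and reached 5.02. Both rises were at least 3 in 26 members and at least 4 in 13, counted on deposited values that include controls at background. The median over the 94 members was 6.60 to 6.68 on the IR64 control arrays and 9.57 to 9.66 on the IR64 heat arrays. It was 4.78 to 5.07 on the N22 control arrays and 8.38 to 8.57 on the N22 heat arrays.

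**Figure D1:**
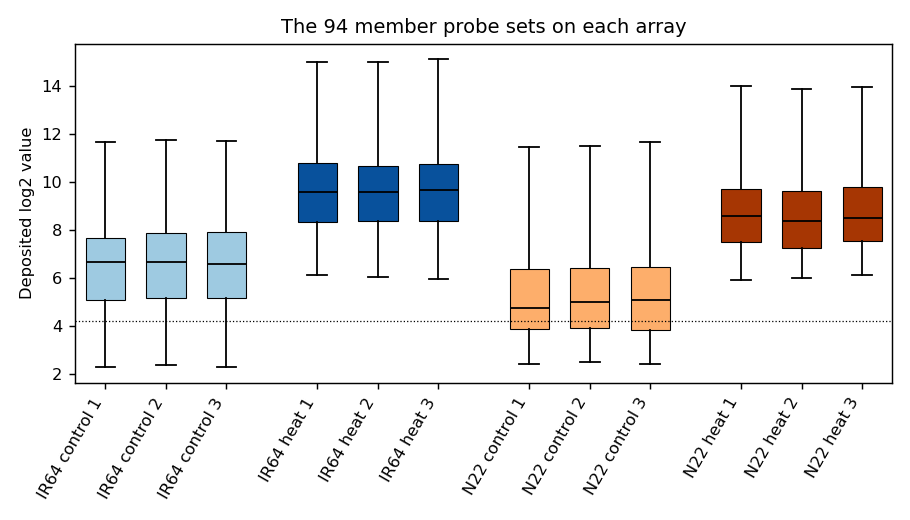
Deposited log2 values of the 94 member probe sets on each of the 12 arrays; the box spans the quartiles, the line is the median, whiskers reach the lowest and highest member, and the dotted line is the background level of 4.20. Medians sit at 6.60 to 6.68 in IR64 control, 9.57 to 9.66 in IR64 heat, 4.78 to 5.07 in N22 control and 8.38 to 8.57 in N22 heat.

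Many members started from very low signal. Background was set at 4.20, the top reading among the 64 reporter probe sets on the array. All 3 control arrays lay at or under it for 7 members in both cultivars, for 19 in N22 only and for 1 in IR64 only. The other 67 members had at least 1 array above it in each control group. Some of those control groups still had a mean under it, and their rises, given as deposited, can be understated. Where all 3 arrays of a control group lay at background, the fold is a lower bound, written "at least N-fold", from the background level to the mean of the heat group.

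**Figure D2:**
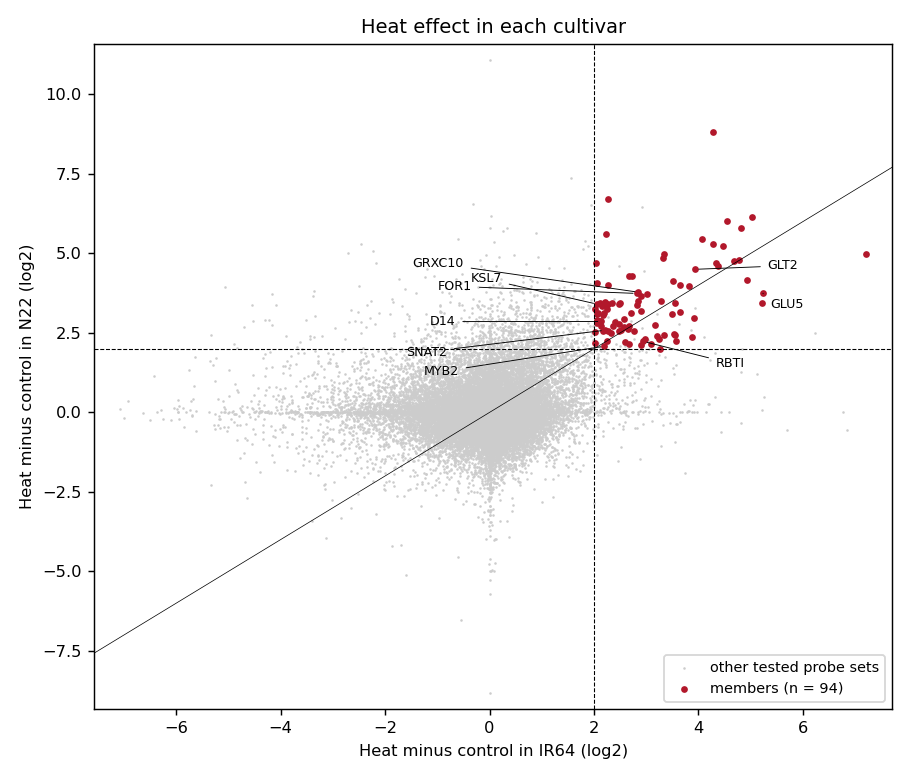
Heat minus control (log2) in IR64 on the horizontal axis and in N22 on the vertical axis for 29801 tested probe sets; red points are the 94 members, dashed lines mark the limit of 2 and the solid line marks equal rises. The members fill the upper right corner that the limits define, with 67 of the 94 above the line of equal rises.

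Among the named members, 4 encode proteins of classes known from defence or the cell wall, and their roles in these panicles were not tested. FOR1 (LOC4343645) encodes a leucine-rich repeat protein of the polygalacturonase-inhibitor type, a class that blocks pectin-cutting enzymes of fungi. FOR1 read 5.62, 5.38 and 5.25 in IR64 control, 8.16, 8.35 and 8.19 in IR64 heat, 2.62, 2.64 and 2.65 in N22 control and 6.43, 6.37 and 6.33 in N22 heat. Its N22 controls were thus all at background, and N22 stayed below IR64 in heat. The rise of FOR1 was 2.82 ± 0.09 (SE of the fit, 3 arrays per group) in IR64 and at least 4.51-fold in N22.

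KSL7 (LOC4329724) encodes a diterpene synthase on the route to the phytocassanes, antifungal compounds of rice. KSL7 values were 6.20, 6.52 and 6.29 in IR64 control and 8.45, 8.37 and 8.36 in IR64 heat, against 4.08, 4.06 and 4.10 in N22 control and 7.60, 7.30 and 7.56 in N22 heat. It gained 2.06 ± 0.09 in IR64 and at least 9.74-fold in N22, again from background. A second probe set of KSL7 lay at background in all groups (means 3.68 to 4.11), so the rise rests on the brighter one.

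RBTI (LOC9271230) encodes a Bowman-Birk trypsin inhibitor, a small protein that blocks digestive proteases. Its probe set can match several transcripts, a limit in a gene family of close copies. RBTI read 8.54, 8.48 and 8.56 in IR64 control, 11.45, 11.50 and 11.47 in IR64 heat, 9.19, 9.18 and 9.10 in N22 control and 11.43, 11.30 and 11.43 in N22 heat. N22 was the higher cultivar in control, while in heat every N22 array lay just below every IR64 array. The RBTI rises were 2.95 ± 0.05 in IR64 and 2.23 ± 0.05 in N22.

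GLU5 (LOC4324643) encodes an endo-1,4-beta-glucanase of glycosyl hydrolase family 9, an enzyme class that trims cellulose in growing walls. GLU5 read 4.96, 4.85 and 4.49 in IR64 control, 10.01, 9.96 and 10.04 in IR64 heat, 4.08, 3.76 and 4.49 in N22 control and 7.75, 7.83 and 7.99 in N22 heat. Control values were low in both cultivars and touched each other, whereas every IR64 heat array lay above every N22 heat array. Its rise was 5.24 ± 0.17 in IR64 and 3.74 ± 0.17 in N22, the widest gap toward IR64 among the 9 named genes.

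The hormone and indoleamine genes were D14 and SNAT2. D14 (LOC4331983) is the strigolactone receptor, through which that hormone restrains tillering in rice. D14 read 11.10, 11.00 and 10.96 in IR64 control, 13.16, 13.20 and 13.12 in IR64 heat, 8.61, 8.52 and 8.62 in N22 control and 11.52, 11.32 and 11.49 in N22 heat. It was higher under heat by 2.14 ± 0.07 in IR64 and by 2.86 ± 0.07 in N22, and the N22 heat arrays came just above the IR64 control arrays. SNAT2 (LOC4344423) encodes serotonin N-acetyltransferase, an enzyme of melatonin synthesis. SNAT2 stood at 5.92, 5.61 and 5.87 in IR64 control, 7.86, 8.02 and 8.15 in IR64 heat, 4.09, 3.78 and 3.90 in N22 control and 6.66, 6.39 and 6.48 in N22 heat. The SNAT2 rise was 2.21 ± 0.12 in IR64 and at least 4.95-fold from background in N22.

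Nitrogen and redox metabolism were represented by GLT2 and GRXC10. GLT2 (LOC4339561) encodes an NADH-dependent glutamate synthase, which builds glutamate from glutamine and 2-oxoglutarate. GLT2 read 5.45, 5.65 and 5.51 in IR64 control, 9.57, 9.40 and 9.48 in IR64 heat, 4.26, 4.52 and 3.91 in N22 control and 8.87, 8.55 and 8.76 in N22 heat. With rises of 3.94 ± 0.14 in IR64 and 4.50 ± 0.14 in N22, it had the largest smaller rise of the 9 named genes. GRXC10 (LOC4351046) encodes a glutaredoxin, a small thiol enzyme of redox control. GRXC10 read 8.85, 9.01 and 8.97 in IR64 control, 11.81, 11.73 and 11.85 in IR64 heat, 6.10, 6.26 and 6.21 in N22 control and 10.07, 9.86 and 9.98 in N22 heat. All 4 groups of arrays were separate for GRXC10, and its rises were 2.85 ± 0.07 in IR64 and 3.78 ± 0.07 in N22.

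MYB2 (LOC4332651) was the only named transcription factor gene among the members, and its product is known in rice for a part in tolerance of salt, cold and drought. MYB2 read 6.87, 7.01 and 6.99 in IR64 control, 9.23, 8.96 and 9.27 in IR64 heat, 5.04, 5.04 and 5.37 in N22 control and 7.39, 7.19 and 7.12 in N22 heat. Its rises, 2.20 ± 0.12 in IR64 and 2.08 ± 0.12 in N22, were nearly the same, and the N22 values stood lower in both conditions.

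**Figure D3:**
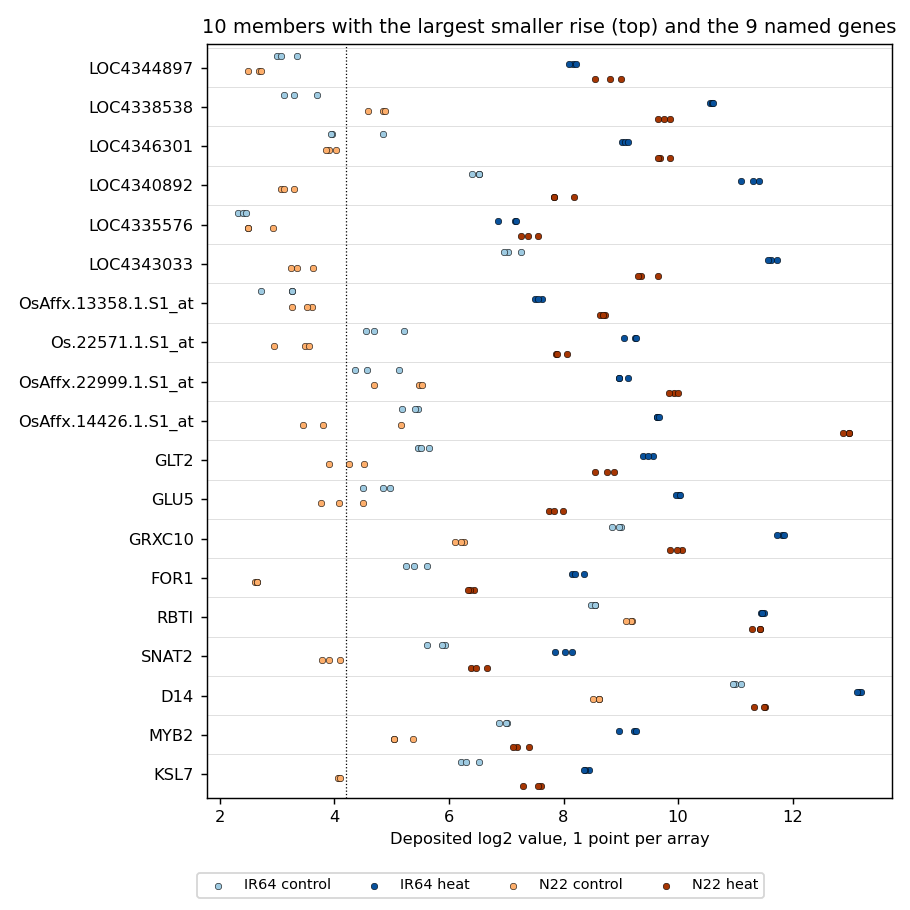
Deposited log2 values on each of the 12 arrays (1 point per array, coloured by group) for the 10 members with the largest smaller rise, from the top, and the 9 named genes below them; the dotted line is the background level of 4.20. In each line both dark heat groups lie to the right of both of their pale control groups, and the N22 controls of FOR1, SNAT2 and KSL7 lie at background.

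The 10 members with the largest smaller rise all lacked an informative name. LOC4344897 averaged 3.14 ± 0.19 (SD, n = 3) in IR64 control, 8.16 ± 0.06 in IR64 heat, 2.63 ± 0.12 in N22 control and 8.79 ± 0.23 in N22 heat. It went from background to at least 15.5-fold above it in IR64 and at least 24.0-fold in N22. LOC4335576, on a probe set shared between transcripts, gave similar values in both cultivars, at least 7.26-fold and at least 9.17-fold above background.

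LOC4338538 read 3.70, 3.29 and 3.11 in IR64 control, 10.56, 10.59 and 10.61 in IR64 heat, 4.59, 4.86 and 4.88 in N22 control and 9.76, 9.65 and 9.85 in N22 heat. Its IR64 rise, at least 83.4-fold from background, was the largest of any member in that cultivar, and its N22 rise was 4.98 ± 0.14. In LOC4346301, the rise was 4.82 ± 0.20 in IR64, where 1 control array (4.85) stood above background and the others (3.96 and 3.94) did not, and at least 46.3-fold in N22.

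OsAffx.14426.1.S1_at had the largest N22 rise. It read 5.47, 5.19 and 5.41 in IR64 control, 9.63, 9.64 and 9.67 in IR64 heat, 3.81, 5.16 and 3.44 in N22 control and 12.99, 12.87 and 12.99 in N22 heat. The rise was 4.29 ± 0.34 in IR64 and 8.81 ± 0.34 in N22, and the wide error comes from the N22 controls, of which 1 array stood above background. The other unpaired probe sets in this group were OsAffx.13358.1.S1_at, at least 10.2-fold up in IR64 and at least 22.3-fold in N22, Os.22571.1.S1_at, with 4.37 ± 0.19 and at least 13.3-fold, and OsAffx.22999.1.S1_at, with 4.33 ± 0.23 and 4.70 ± 0.23.

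The remaining genes of the 10 were LOC4340892 and LOC4343033, both far lower in N22 than in IR64 on their member probe sets. LOC4340892 read 6.52, 6.40 and 6.53 in IR64 control, 11.41, 11.30 and 11.09 in IR64 heat, 3.29, 3.07 and 3.12 in N22 control and 7.84, 8.18 and 7.84 in N22 heat. Its probe set can match several transcripts, and another probe set of the gene changed by -0.23 in IR64 and 2.72 in N22, so the probe sets of LOC4340892 disagree about IR64. LOC4343033, on a shared probe set too, read 7.03, 7.26 and 6.97 in IR64 control, 11.63, 11.73 and 11.57 in IR64 heat, 3.35, 3.63 and 3.24 in N22 control and 9.35, 9.29 and 9.64 in N22 heat. Its rise was 4.56 ± 0.13 in IR64 and at least 37.4-fold in N22.

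Some members are close to each other in the gene table, whose order is used here without coordinates. LOC4343033 lies directly next to LOC4343034, with 0 genes between them, SNAT2 is separated from LOC4344421 by 2 genes, and RBTI from LOC4325998 by 3. LOC4343034 had 2 member probe sets. The shared one read 11.66, 11.74 and 11.69 in IR64 control, 14.97, 14.98 and 15.09 in IR64 heat, 8.48, 8.81 and 8.80 in N22 control and 13.57, 13.48 and 13.61 in N22 heat, so its rise was 3.32 ± 0.09 in IR64 and 4.86 ± 0.09 in N22. The other, which may cross-hybridise, gave 2.82 ± 0.43 and 3.37 ± 0.43, and the gene's remaining probe set stayed at background. LOC4344421, the neighbour of SNAT2, was higher under heat by 2.47 ± 0.11 in IR64 and 3.41 ± 0.11 in N22. Neighbouring genes can be similar in sequence, and whether shared hybridisation moves these pairs together was not tested.

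How evenly the cultivars moved varied among the members. The rise was larger in N22 for 67 and larger in IR64 for 27, and the rises lay within 0.5 of each other for 32. N22 exceeded IR64 by more than 1 in 25 members, and IR64 exceeded N22 by more than 1 in 8. The median difference, N22 minus IR64, was 0.40, with a range of -2.24 to 4.52. Because a control value at background understates a rise, and 19 members were at background only in N22 control, these counts describe the deposited values alone.

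Among the most even members by deposited values, LOC4352307 had rises of 2.65 in IR64 and 2.63 in N22, LOC4335920 had 2.26 and 2.23, and LOC4328933 had 2.67 and 2.72. LOC4340892 also gave near-equal values, 4.78 and 4.79, but its N22 control lay at background, so its N22 rise is known only as at least 13.4-fold and its evenness is not measured. At the other end, LOC4325998 read 10.75, 11.07 and 10.68 in IR64 control, 13.16, 13.08 and 13.11 in IR64 heat, 5.74, 5.34 and 5.14 in N22 control and 12.22, 12.03 and 12.12 in N22 heat. N22 thus began far below IR64 and came within 0.99 of it in heat, with rises of 2.28 ± 0.15 in IR64 and 6.72 ± 0.15 in N22. Os.2322.1.S1_at crossed over: it averaged 6.22 ± 0.05 (SD, n = 3) in IR64 control and 8.46 ± 0.13 in IR64 heat, but 3.94 ± 0.08 in N22 control and 9.56 ± 0.09 in N22 heat. The rise of Os.2322.1.S1_at was 2.24 ± 0.08 in IR64 and at least 41.0-fold in N22. Toward IR64, Os.18633.1.S1_at had rises of 3.87 ± 0.12 in IR64 and 2.37 ± 0.12 in N22. LOC4334965 was at least 16.4-fold up in IR64 and at least 8.84-fold in N22, from background in both controls, so these bounds do not order its rises.

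The limits do not fix which cultivar is higher, so the levels of the cultivars were compared with limma, with Benjamini-Hochberg adjusted p-values over all 29801 probe sets and a threshold of 0.05. The comparison uses the same arrays and group means as the limits. The shares over all tested probe sets are therefore given beside the counts and are not a like-for-like background. In control panicles, 76 of the 94 members were lower in N22 than in IR64, where 35.6% of all tested probe sets were lower, and 11 were higher, where 35.1% of all were higher. The other 7 were not called. Among the 12951 tested probe sets with both heat means at 6 or more, 43.7% were lower in N22 control and 43.6% higher. At 2-fold or more, 66 members were lower (22.6% of all tested) and 3 were higher (19.1%). The members' median difference, N22 minus IR64, was -1.56 in control, beside 0.00 over all tested probe sets. For 2 of the lower and 3 of the higher members both controls lay at background, so those calls rank values with no measured order.

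In heat, 74 members were lower in N22, where 33.5% of all tested were, and 11 were higher, where 29.6% were, with 9 not called. Among the probe sets with both heat means at 6 or more, 45.0% were lower in N22 heat and 36.0% higher. Of the members, 51 were lower by 2-fold or more (15.5% of all tested) and 5 higher (15.7%). The median difference shrank to -1.11, beside -0.01 over all tested. N22 was lower in both conditions for 68 members, or 72.3%, against 23.7% of all tested, and higher in both for 3, against 22.4%. Another 5 members were lower in N22 control and higher in N22 heat, and 4 were the reverse. Without any model, all 3 N22 arrays lay below all 3 IR64 arrays for 75 members in control (37.6% of all tested) and 76 in heat (35.8%), and above them for 11 (36.9%) and 15 (32.2%).

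**Figure D4:**
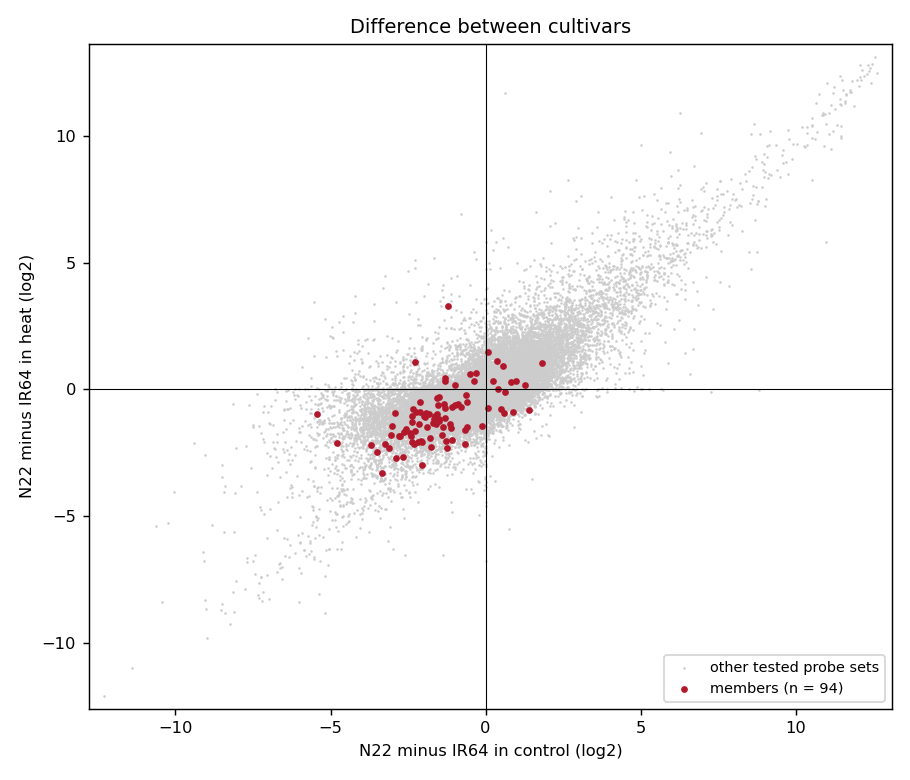
N22 minus IR64 (log2) in control on the horizontal axis and in heat on the vertical axis for the 29801 tested probe sets, with the 94 members in red. Most members fall in the lower left part of the plot, where 68 were called lower in N22 in both conditions, and the highest red point, at 3.31 in heat, is OsAffx.14426.1.S1_at.

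Of the named genes, 8 were lower in N22 in both conditions and RBTI was not. In control, GRXC10 was lower in N22 by a log2 difference of -2.75 ± 0.07 (adjusted p = 1.32e-10, lower on 3 of 3 arrays), D14 by -2.43 ± 0.07 (adjusted p = 1.55e-10), MYB2 by -1.80 ± 0.12 (adjusted p = 1.42e-07) and GLT2 by -1.31 ± 0.14 (adjusted p = 9.38e-06). IR64 exceeded the N22 background at least 2.32-fold for FOR1 (adjusted p = 5.61e-10), at least 3.03-fold for SNAT2 (adjusted p = 1.07e-07) and at least 4.39-fold for KSL7 (adjusted p = 4.55e-09). The GLU5 difference in control was -0.66 ± 0.17 (adjusted p = 0.0061) with touching array values, and was no longer called when only the control groups were fitted. RBTI was 0.63 ± 0.05 higher in N22 (adjusted p = 1.18e-06).

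In heat the same genes differed by -2.15 for GLU5 (adjusted p = 1.33e-06), -1.92 for MYB2 (adjusted p = 1.45e-07), -1.86 for FOR1 (adjusted p = 2.32e-08) and -1.82 for GRXC10 (adjusted p = 5.38e-09). D14 stood at -1.72 (adjusted p = 3.99e-09), SNAT2 at -1.50 (adjusted p = 1.04e-06), KSL7 at -0.91 (adjusted p = 9.86e-06) and GLT2 at -0.75 (adjusted p = 0.000815). RBTI was not called in heat, at -0.09 (adjusted p = 0.173), and was called at -0.30 after quantile normalization.

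The largest differences in control were those of LOC4325998, -5.43 ± 0.15 (adjusted p = 1.55e-10), and Os.22594.1.S1_at, -4.79 ± 0.19 (adjusted p = 2.43e-09). Os.22594.1.S1_at read 9.42, 9.11 and 9.15 in IR64 control, 11.29, 11.29 and 11.19 in IR64 heat, 4.10, 4.32 and 4.90 in N22 control and 9.35, 8.94 and 9.13 in N22 heat. Its N22 heat arrays thus stood at about the level of the IR64 controls. IR64 was at least 7.37-fold above N22 for LOC4343033 (adjusted p = 9.41e-10) and at least 5.01-fold for LOC4327859 (adjusted p = 2.37e-11). The members higher in N22 control were led by OsAffx.21178.1.S1_x_at, 1.82 ± 0.16 (adjusted p = 1.97e-06), LOC4338538, at least 1.49-fold (adjusted p = 4.25e-06), Os.50714.1.S1_x_at, 1.26 (adjusted p = 0.000921), and LOC4335075, 0.97 (adjusted p = 0.000101).

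Under heat, by member probe sets, N22 was lowest against IR64 for LOC4340892, -3.32 (adjusted p = 1.8e-09), LOC9271072, -2.98 (adjusted p = 1.5e-06), LOC4339868, -2.71 (adjusted p = 1.86e-08), and LOC4352307, -2.67 (adjusted p = 3.47e-08). The brighter probe set of LOC4340892, which is no member, averaged 12.90 in IR64 heat and 12.07 in N22 heat. The size of that gene's difference in heat thus depends on the probe set. LOC9271072 read 10.49, 10.49 and 10.46 in IR64 heat and 7.47, 7.30 and 7.72 in N22 heat. N22 was highest for OsAffx.14426.1.S1_at, 3.31 ± 0.34 (adjusted p = 9.04e-06), OsAffx.14628.1.S1_at, 1.49 (adjusted p = 1.46e-06), OsAffx.13358.1.S1_at, 1.12 (adjusted p = 4.5e-05), and Os.2322.1.S1_at, 1.10 (adjusted p = 4.15e-07). OsAffx.14628.1.S1_at came from background in both controls to 6.55, 6.62 and 6.19 in IR64 heat and 7.82, 7.84 and 8.17 in N22 heat.

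Other probe sets of the members' genes show how far a rise depends on the probe set. Of the 67 genes, 11 had more than 1 probe set on the array, and 2 of them, LOC4343034 and LOC4347166, had 2 members each. The LOC4347166 probe sets gave 2.57 and 2.11 in IR64 and 2.93 and 2.88 in N22. There were 15 further probe sets for 10 of the genes, of which 5 were too low to be tested. By group means alone, with no test, 6 were higher in heat in both cultivars, and 3 were at least 1 higher in both. Some of the 6 had means under background in all groups. LOC4349514 went against its member, with changes of 0.36 in IR64 and -0.62 in N22 on the other probe set, where the member gave 2.07 and 3.14. Among all 94 members, 19 had a suffix that marks probes able to match more than 1 transcript.

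Lists of classical heat genes are given beside the members, which make up 0.164% of all probe sets, so a list of this size would rarely hold one and its count of members is no result. Of 19 small heat shock protein genes tested, 0 were members: 3 rose and 10 fell in IR64 and 18 rose and 1 fell in N22, beside 24.2% of all probe sets called higher and 27.5% lower in IR64, and 23.9% and 27.8% in N22. The list's median change was -0.60 in IR64 and 2.22 in N22. The 3 that rose in both missed a limit each: HSP16.9A rose by 3.51 in IR64 and 1.40 in N22, HSP16.9B by 1.94 and 6.53, and HSP23.2, from background at least 2.92-fold in IR64, reached a heat mean of only 5.75 there. Of 19 heat stress transcription factor genes, 0 were members, 3 rose and 8 fell in IR64, and 6 rose and 3 fell in N22. HSFC1B rose by 3.06 ± 0.08 in IR64 and 1.99 ± 0.08 in N22, just under the limit. None of 12 genes for HSP90, HSP101 and endoplasmic reticulum chaperones was a member, with 1 rising and 7 falling in IR64 and 4 rising and 5 falling in N22.

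The gene families of 4 named members are given with them. Of 18 glutaredoxin genes, 5 rose and 10 fell in IR64 and 8 rose and 3 fell in N22, with medians of -0.34 and 0.11. GRXC1 came nearest to joining GRXC10, at least 7.31-fold up in IR64 and at least 1.63-fold in N22, with too low a heat mean in N22 (4.91). Of 9 family 9 endoglucanase genes, 2 rose and 5 fell in IR64 and 5 rose and 1 fell in N22, and GLU2 fell by 4.09 ± 0.08 in IR64, where GLU5 was higher. Among 15 diterpenoid synthase and cytochrome P450 genes around KSL7, 3 rose and 6 fell in IR64, with a median of -0.16, while 10 rose and 0 fell in N22, with a median of 2.54. Of 10 MYB genes including MYB2, 6 rose and 2 fell in each cultivar, with medians of 0.47 and 0.88. The counts include the member itself, whose call follows from the limits.

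Tissue markers also differed between the cultivars. The summed linear level of 14 endosperm markers on the array came to 3011 to 3299 in IR64 control and to 1758 to 2127 after heat, but 268350 to 280369 in N22 control and 239215 to 261229 in N22 heat. The storage protein genes GLUA-1, GLUB-5 and GLUA-3 and the prolamin gene PROLM25 were at background in both IR64 groups, and 12 of the 14 markers stood above it in N22 against 4 in IR64. The sum of 15 floret markers, MADS-box genes of floral organs among them, was 20936 to 22446 in IR64 control, 17103 to 18614 in IR64 heat, 2561 to 2616 in N22 control and 5302 to 6243 in N22 heat. The floret list was thus lower in N22 by a median of -2.73 in control and -1.67 in heat. Most members and the leaf list below had the same direction, while the endosperm and anther lists were higher in N22. Under heat the floret list changed by a median of 1.15 in N22 and 0.11 in IR64.

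Leaf and photosynthesis markers (7 genes, all above background) summed to 105088 to 108848 in IR64 control, 98207 to 105310 in IR64 heat, 36229 to 38622 in N22 control and 74109 to 79291 in N22 heat. Their median heat change was 2.82 in N22 and -0.15 in IR64, and N22 minus IR64 was -3.45 in control and -0.76 in heat. Of the anther markers, 8 were on the array, and TDR, RTS, C6, PTC1 and CYP703A3 were at background in all groups. The anther sum was 425 to 465 in IR64 control, 406 to 449 in IR64 heat, 1363 to 1496 in N22 control and 766 to 778 in N22 heat. No member is in any of the 4 marker lists. The design text says that sowing was staggered so that both cultivars flowered together, and whether the panicles compared were at the same stage of grain filling was not tested, which bears on each N22 minus IR64 value. The part of tissue makeup in the members' N22 rises and in their lower N22 levels was not tested, and in bulk panicles fewer cells of a type and less RNA per cell cannot be told apart.

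**Figure D5:**
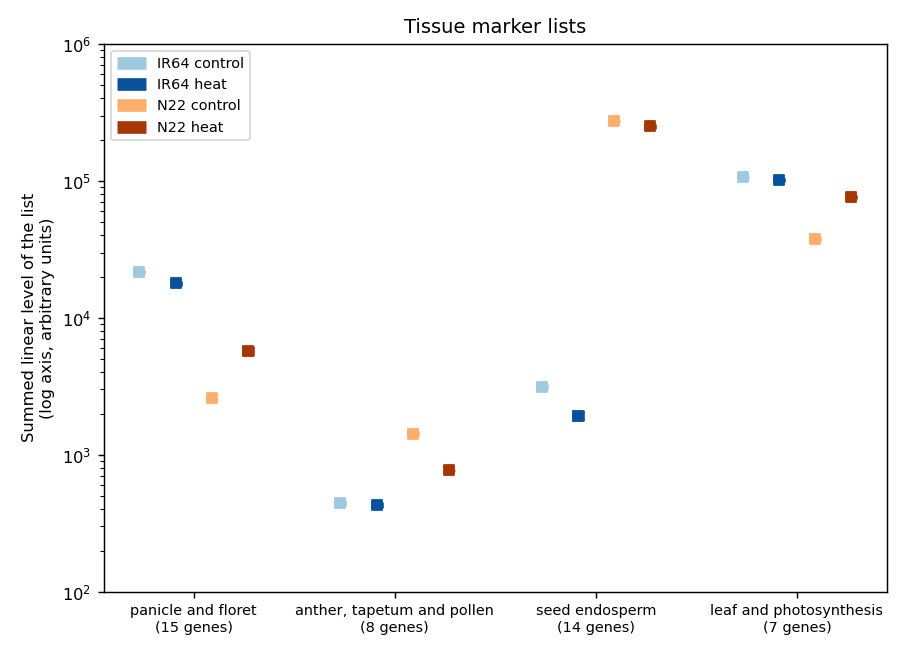
Summed linear level of each tissue marker list (log axis, arbitrary units) by group; each square marks the middle of the 3 arrays' range, which is narrower than the square. Endosperm markers reach 239215 to 280369 in N22 and 1758 to 3299 in IR64, while floret markers reach 2561 to 6243 in N22 and 17103 to 22446 in IR64.

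RNA quality moved with the groups as well. The GAPDH control probe sets differed between the 3' and 5' end by 4.79 ± 0.18 (SD, n = 3) in IR64 control, 7.93 ± 0.16 in IR64 heat, 8.59 ± 0.14 in N22 control and 8.81 ± 0.17 in N22 heat. Heat against control gave p = 0.1 in IR64 and p = 0.2 in N22 in two-sided exact permutation tests, where 0.1 is the smallest p possible with 3 against 3 arrays. Ubiquitin differed between its ends by 1.45 in IR64 control and 2.21 in N22 control, and by 2.15 and 2.04 in the matching heat groups. Actin went the other way with heat in IR64, from 7.42 to 6.58, and from 8.08 to 7.90 in N22. Cyclophilin went from 3.35 to 3.79 in IR64 and from 4.45 to 4.08 in N22. The 5' end was at background on 12 arrays for actin and on 10 for cyclophilin, which limits both. The labelling spikes, which are added in fixed amounts, were 1.52 higher under heat in IR64 and 0.17 higher in N22. Those of hybridisation were 0.75 higher in IR64 and changed by -0.15 in N22. Between cultivars, N22 minus IR64, the labelling spikes stood at 0.33 in control and -1.02 in heat, and those of hybridisation at 0.64 and -0.27, beside the members' medians of -1.56 and -1.11. The part of RNA quality or labelling in the members' rises, and in their differences between cultivars, was not tested.

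At the edges of the limits, the IR64 rise was 2.02 for LOC4329576 and LOC4343821 and 2.03 for LOC4343673, and just outside 1.99 for LOC4326021 and for a second probe set of LOC4342714, and 1.98 for LOC4339629. In N22, LOC4324548 at 2.01, MYB2 at 2.08 and LOC4342946 at 2.13 were inside, and HSFC1B at 1.99, a second probe set of LOC4341032 at 1.98 and LOC4350431 at 1.97 were outside. By the lower heat mean, LOC4324548 at 6.02, LOC4340994 at 6.05 and LOC9266978 at 6.09 were inside, while LOC4347708 (just short of 6), the laccase gene LAC7 at 5.97 and Os.8570.3.S1_s_at at 5.96 were outside. The gaps across the IR64 limit are smaller than the SD between arrays, with a median over members of 0.14 for IR64 control and 0.08 for IR64 heat.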

How the data were processed

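Panicle RNA was hybridised to 12 Affymetrix rice arrays, 1 per sample. The authors deposited 1 table of log2 values for 57381 probe sets, made with GCRMA per the submitters' processing notes, which corrects background by probe sequence and normalises across arrays; its release and options are not stated there. All columns were used, and the values run from 2.29 to 15.8. After leaving out 123 AFFX and 64 RPTR control probe sets, those above the table median (2.35) on at least 3 arrays were tested, which left 29801 and kept all 94 members. The tests came from limma 3.58.1 under R 4.3.3, with 1 mean per group and all 12 arrays together (lmFit, eBayes, 8 residual and 1.79 prior degrees of freedom), two-sided, with Benjamini-Hochberg adjustment. The number of arrays limits the precision. The recovery of known cultivar differences in control was tested on simulated data with independent noise on each array. That simulation cannot speak to shifts between cultivars in RNA quality, labelling or tissue.

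Gene pairing came from the array annotation (22436 probe sets with 1 gene, 95 with several, 34850 with none), and names and neighbours from the gene table of assembly ASM3414082v1. No coordinates or sequences are given. In the lists each gene was represented by its probe set of highest mean value. Members, lists and tests were chosen with earlier results of these data known, and the background level of 4.20 after the data were examined. The naming rule took the 10 members with the largest smaller rise, every member with an informative gene name, the 4 with the largest called cultivar difference per direction and condition, the 4 most even and the 3 least even per direction, those at each limit, and genes with several probe sets; other members named were chosen after their values were seen. Of 18 gene lists, 4 held a member (MYB, glutaredoxin, family 9 endoglucanase and diterpenoid genes). A promoter motif search that had been planned was not run.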

Additional observations from a re-analysis of the deposited data

How the results depend on the processing

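The rise limit decided the number of members most: 230 probe sets met a limit of 1.5, which held all 94, and 44 met a limit of 2.5. Keeping 1 probe set per gene gave 65. The other alternatives for the limits and scaling gave 80 to 121 members: 97 with each array centred on its median (94 shared), 107 after quantile normalization (92 shared), 88 with low values raised to background, 121 and 80 with a lowest heat mean of 5 and 7, and 99 with medians in place of means. Leaving out 1 array gave 92 to 104 members, 86 to 88 called between cultivars in control (76 to 77 lower and 10 to 12 higher in N22), and 82 to 87 in heat (72 to 74 lower and 8 to 13 higher). Raising low values to background gave 72 lower and 8 higher in control. With the replicate number as a block, 87 members were called in control and 85 in heat, counts equal to those without it, although 2 calls among the named members were lost and 2 gained; same-numbered samples correlated at -0.05 to 0.10 in their deviations from the group means, so they share only a number. Over the named members' values, 2975 alternatives left the call or value as it was, 38 moved a value, 31 lost a call, 16 gained one and 0 reversed. Calls lost most often were the heat difference of LOC4329576 (-0.28, adjusted p = 0.0477) and the control difference of OsAffx.13358.1.S1_at, at background in both controls. Array values near background limit what low members can show.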
